A study of Mus musculus with 18 samples.

Results

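The immunoglobulin genes, from which antibodies are assembled, were followed in neutrophils sorted from 6 tissues of the mouse. A gene was included when its symbol begins with Ighv, Igkv, Iglv, Ighg, Igkc or Iglc, or is Igha, Ighm, Ighd, Ighe or Jchain, and 362 of the 32328 genes in the table met this rule. They were 185 heavy-chain variable segments (Ighv), 160 kappa variable segments (Igkv), 3 lambda variable segments (Iglv), the 8 heavy-chain constant genes for IgM, IgD, IgG (4 genes), IgA and IgE, the kappa constant gene Igkc, 4 lambda constant genes and Jchain. Symbols were the only criterion for a gene to be included, but the set itself was chosen with earlier results of these data known. The libraries came from C57BL/6 mice of 8 to 12 weeks, and the labels name no treatment and no engineered allele. The groups were bone marrow (BM), Blood, Spleen, Lung, Intestine (labelled as colon) and Skin (from the ear), with 3 bulk RNA-seq libraries each. Cells were sorted by flow cytometry with the markers CD45, CD11b, Ly6G and the dye DAPI, and the stated purity of the sorts was typically above 95%. Whether the 3 libraries of a tissue are different animals is not given in the labels. The p-values therefore describe only how these libraries scatter, which may be technical.

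Antibodies are made by B cells and, in large amounts, by plasma cells. Each developing B cell joins 1 variable segment to short diversity and joining segments, and the joined exon is spliced to a constant region that sets the class, or isotype, of the heavy chain. Naive B cells carry IgM and IgD together, and class switching replaces them with IgG, IgA or IgE. IgA is the main antibody of mucosal surfaces. Jchain, the joining chain, links IgA dimers and IgM pentamers and is abundant in plasma cells. The comparisons below describe the signal in sorted libraries without assigning it to a cell. In bulk libraries, fewer cells of a type and less RNA per cell cannot be told apart.

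In the mouse genome the members lie in a few clusters. On build mm10, with gene models from GENCODE vM21, 193 members are on chromosome 12, 161 on chromosome 6, 7 on chromosome 16 and Jchain is alone at chr5:88519809-88527891 on the minus strand. The heavy-chain constant genes run along the minus strand from Ighm (chr12:113418558-113422730) and Ighd (chr12:113406604-113416324) through Ighg3 (chr12:113356224-113361232), Ighg1 (chr12:113325240-113330523), Ighg2b (chr12:113302965-113307933) and Ighg2c (chr12:113285325-113288932) to Igha (chr12:113254830-113260236). Igkc is at chr6:70726435-70726966 on the plus strand. Iglc1 (chr16:19061618-19062071) and Iglc2 (chr16:19198396-19200351) are on the minus strand.

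Variable segments are close relatives, which matters for reading any single segment's value. The following germline sequences are the ends of the variable exons, at most 300 bases each, read from the GENCODE vM21 transcripts on mm10. Igkv6-15 was the kappa segment with the highest mean over the 18 libraries, Igkv3-4 and Ighv1-58 differed in opposite directions between Intestine and Spleen, and Igkv19-93 took nearly all kappa variable counts of 1 Skin library. Capitals mark the codons for Tyr, Tyr or Phe, and Cys that close framework 3, just before the complementarity-determining region that spans the junction. The intervals are chr6:70406469-70406766 (minus strand) for Igkv6-15, chr6:70672078-70672377 (plus) for Igkv3-4, chr6:68736297-68736591 (minus) for Igkv19-93 and chr12:115312166-115312465 (minus) for Ighv1-58.
Igkv6-15: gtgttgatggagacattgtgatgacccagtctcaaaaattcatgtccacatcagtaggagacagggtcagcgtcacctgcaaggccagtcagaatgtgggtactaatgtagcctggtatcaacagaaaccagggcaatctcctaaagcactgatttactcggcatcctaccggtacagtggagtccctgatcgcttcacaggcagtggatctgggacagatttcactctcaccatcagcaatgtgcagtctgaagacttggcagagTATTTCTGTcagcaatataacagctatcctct
Igkv3-4: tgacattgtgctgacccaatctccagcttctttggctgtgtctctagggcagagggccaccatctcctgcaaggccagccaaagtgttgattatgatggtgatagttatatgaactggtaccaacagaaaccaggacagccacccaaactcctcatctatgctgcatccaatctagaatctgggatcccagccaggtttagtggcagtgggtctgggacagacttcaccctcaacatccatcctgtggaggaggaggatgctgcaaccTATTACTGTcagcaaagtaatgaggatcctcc
Igkv19-93: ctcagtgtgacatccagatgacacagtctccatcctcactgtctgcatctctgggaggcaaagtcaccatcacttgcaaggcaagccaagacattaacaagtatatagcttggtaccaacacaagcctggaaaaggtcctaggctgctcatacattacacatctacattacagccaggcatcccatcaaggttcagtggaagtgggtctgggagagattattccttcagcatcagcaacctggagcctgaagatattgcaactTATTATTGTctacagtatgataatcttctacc
Ighv1-58: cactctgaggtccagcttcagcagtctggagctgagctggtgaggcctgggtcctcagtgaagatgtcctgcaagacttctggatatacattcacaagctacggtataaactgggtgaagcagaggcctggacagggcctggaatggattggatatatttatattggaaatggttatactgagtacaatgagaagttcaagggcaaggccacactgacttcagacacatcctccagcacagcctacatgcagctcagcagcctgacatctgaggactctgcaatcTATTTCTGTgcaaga

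The next pair shows how little can separate 2 abundant segments. Igkv1-110 (chr6:68270968-68271267, plus) and Igkv1-117 (chr6:68121528-68121827, plus) differed at 10 of 300 bases, an identity of 96.7%, and the capitals mark the differing bases.
Igkv1-110: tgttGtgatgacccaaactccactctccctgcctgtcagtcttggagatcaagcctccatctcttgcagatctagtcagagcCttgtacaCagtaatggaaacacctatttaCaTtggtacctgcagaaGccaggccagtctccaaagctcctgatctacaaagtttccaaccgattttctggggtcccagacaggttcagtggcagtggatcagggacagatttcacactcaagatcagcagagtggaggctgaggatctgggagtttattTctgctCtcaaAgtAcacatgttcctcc
Igkv1-117: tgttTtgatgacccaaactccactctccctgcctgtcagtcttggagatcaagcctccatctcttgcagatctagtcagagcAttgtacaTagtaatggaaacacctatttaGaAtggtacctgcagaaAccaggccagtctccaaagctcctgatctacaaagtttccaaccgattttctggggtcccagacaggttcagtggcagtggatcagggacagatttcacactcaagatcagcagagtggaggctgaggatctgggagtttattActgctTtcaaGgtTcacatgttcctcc
Reads were 61 bases long, and 42.8% of the 61-base windows of Igkv1-110 also occurred in another annotated gene, member or not, on either strand. The corresponding share was 41.9% for Igkv1-117, 22.3% for Igkv3-4, 8.71% for Igkv6-15, 0.687% for Ighv1-58 and 0 for Igkv19-93. The median over all members was 7.48%. Values of single segments with a large shared portion are therefore uncertain, and sums over a locus are less exposed to how reads were divided. Rearranged segments also carry somatic mutations and junction bases that the germline reference lacks, and the sources do not state whether counting used strand.

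The table holds estimated counts scaled by library size with no division by gene length, called scaled counts below. Estimated counts summed to between 2935580 (Lung 1) and 12087900 (Spleen 2) per library, and a gene with no count carries a small floor value of 0.036 to 0.216. Mitochondrial genes took 8.24% to 23.2% of the counts in Intestine and at most 2.87% elsewhere, and 12 genes related to the satellite-like Gm10800 took 26.4% to 54.7% in Skin and 1.07% to 9.02% elsewhere. The labelled cell type was checked with a list of 18 neutrophil genes, whose summed scaled counts were 33140 to 35842 in Blood, 55596 to 73740 in BM, 11462 to 15855 in Spleen, 5953 to 18509 in Lung, 1294 to 19908 in Skin and 918 to 1432 in Intestine. Ly6g, the gene of the sort marker, was at 102 to 237 in Blood and at 0.346 to 3.14 in Intestine. In Skin 1 and Skin 2 it was at 0.221 and 0.216, and in Skin 3 at 26.9. The Intestine libraries and 2 of the Skin libraries thus stood apart from the others in the gene that defines the sort, and every value for them below is that of the library so labelled.

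Immunoglobulin signal was present in every library and varied widely in amount. Summed over the 362 members, scaled counts were 43250, 14199 and 28104 in the 3 Intestine libraries, 6416, 2585 and 4651 in Spleen, and 1402, 2177 and 197 in BM. Lung libraries summed to 1483, 746 and 261, Skin libraries to 105, 1264 and 225, and Blood libraries to 134, 117 and 210. Every Intestine library lay above every Spleen library, and every Spleen library above all those of the other tissues, whereas BM and Skin were widely spread and reached down to the Blood range. As a share of all estimated counts, the members took 4.12%, 1.72% and 3.36% in Intestine and 0.825%, 0.293% and 0.562% in Spleen. In Blood the share was 0.0115%, 0.0098% and 0.0195%.

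The number of members detected did not simply follow the summed signal. Intestine 2 had fewer members than any Spleen library despite its higher sum, and Blood had more than Skin. Members with any estimated count numbered 183, 102 and 176 in Intestine, 150, 146 and 111 in Spleen. The BM libraries had 122, 79 and 80, the Blood libraries 71, 49 and 76, the Lung libraries 60, 66 and 31 and the Skin libraries 21, 20 and 24. Over all libraries 254 members were detected at least once, and 108 had no count anywhere. Requiring 3 counts or more left 152, 81 and 150 in Intestine, 138, 127 and 100 in Spleen, and 7, 6 and 8 in Skin. Blood fell to 27, 15 and 30 members by this criterion, so most of its detected members rested on fewer. Detection depends on depth as well as on level.

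**Figure D1:**
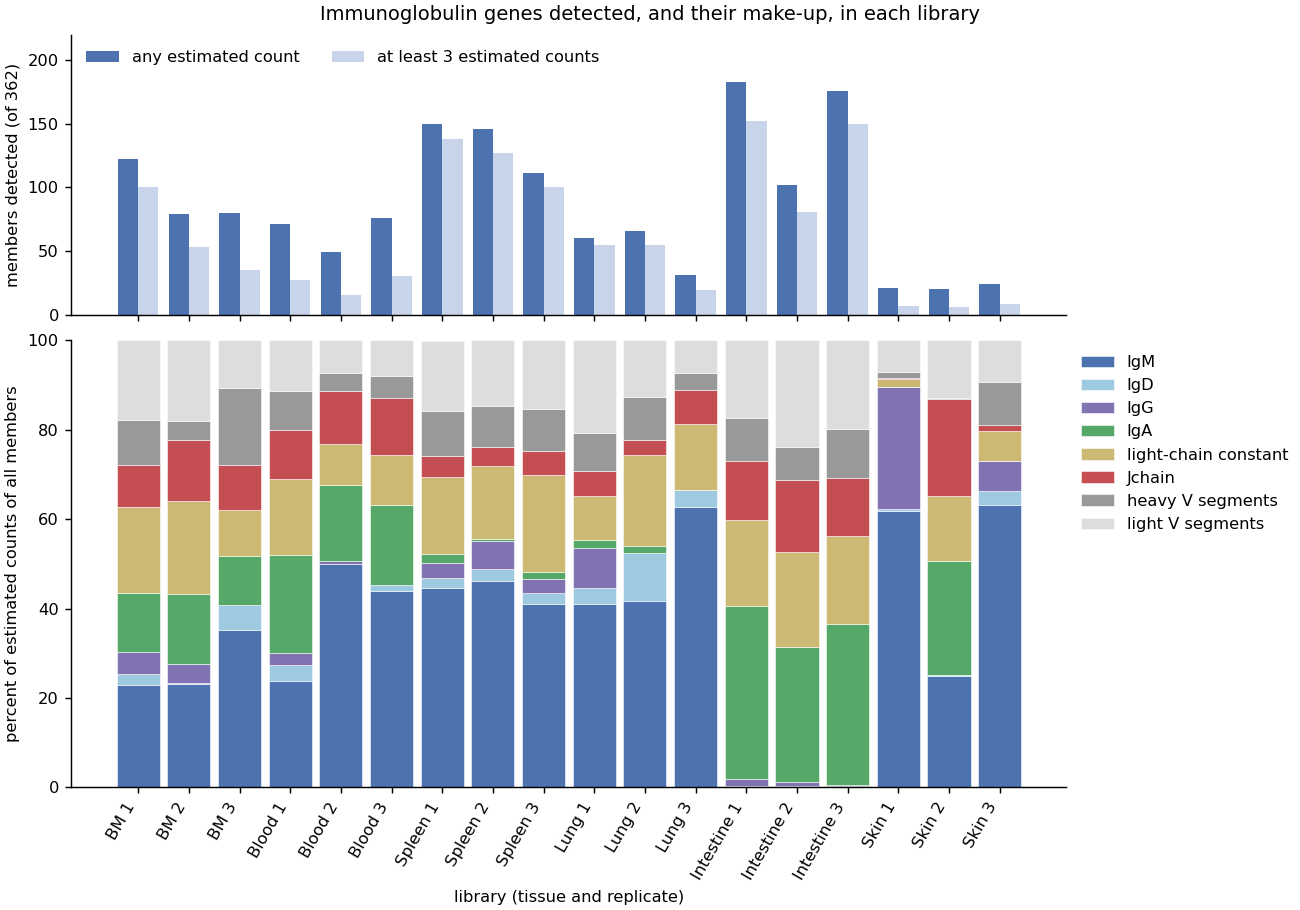
Upper panel, number of the 362 immunoglobulin genes detected in each library (any estimated count, and at least 3). Lower panel, percent of the estimated counts of all members taken by each class in each library, with IgE, at most 0.12%, not drawn. IgA takes 30.3% to 38.7% of the member counts in the 3 Intestine libraries, and IgM 40.9% to 46.2% in the 3 Spleen libraries.

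The make-up of the signal differed between tissues more plainly than its amount. IgM took 44.6%, 46.2% and 40.9% of the member counts in Spleen and 0.22%, 0.25% and 0.25% in Intestine. IgA took 38.7%, 30.3% and 36.1% in Intestine and 2.03%, 0.62% and 1.59% in Spleen. Jchain took 13.1%, 16.2% and 13.03% in Intestine and 4.75%, 4.21% and 5.52% in Spleen. These 3 shares did not overlap between the tissues. Blood held both isotypes, with IgM at 23.9%, 49.9% and 43.8% and IgA at 21.98%, 17.1% and 17.9% of its few counts. BM resembled Blood in this respect, with IgM at 22.9%, 23.1% and 35.1% and IgA at 13.2%, 15.6% and 11.1%.

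Levels of different genes were compared per kilobase of exon. The IgA to IgM ratio on that scale was 123, 86.6 and 103 in Intestine and 0.032, 0.0094 and 0.028 in Spleen. In Blood it was 0.65, 0.24 and 0.29, and in BM 0.41, 0.48 and 0.22. Intestine was therefore the only tissue with IgA above IgM per kilobase in any library where both had at least 3 counts. The IgM to IgD ratio was 20.1, 17.9 and 15.999 in Spleen, where both genes were well covered.

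Fitted across all genes, the immunoglobulin genes were higher in Intestine and in Spleen than in Blood, with few calls in BM or Lung and none in Skin. The fit used limma on log2(scaled count + 1) over the 16157 genes that reached a scaled count of 1 in 3 or more libraries, and a call is a Benjamini-Hochberg adjusted p under 0.05 over all of them. Of the 362 members 140 passed this filter, and 36 of the 140 would have failed it without the Intestine libraries and 27 without the Spleen libraries, so the counts describe these members and do not support a difference. In Intestine against Blood 105 of the 140 were called higher, where 23.7% of all tested genes were, and none were called lower. In Spleen against Blood 59 were called higher, against 5.94% of all tested genes (8.47% in either direction), and none lower. The Spleen count was 9 in a fit with no weight per tissue, 53 in a fit without the Skin libraries and 37 without Spleen 1. In Lung against Blood 2 were called higher, Ighm and Ighd, against 10.7% of all genes, and the count was 0 without Lung 2 and 7 without Lung 3. In BM against Blood only Ighm was called, against 1.62% of all genes called higher and 1.26% lower, and the count was 8 without BM 3 and 0 without BM 1, Blood 1 or Blood 2. In Skin against Blood no member was called in either direction, against 1.65% of all genes called higher and 3.76% lower (5.41% together). An F test for any difference between tissues called 94 of the 140, against 40.4% of all tested genes.

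The size of the differences can be read from medians. The median log2 difference of the 140 members was 3.58 in Intestine against Blood (0.12 over all tested genes), 1.94 in Spleen (0.03), 0.47 in BM (0.00) and 0.26 in Lung (0.03). In Skin it was 0.05, beside -0.26 over all genes. These medians depend on the filter: over all 362 members with no filter the median was 0.20 in Intestine and 0.01 in Spleen, beside -0.02 over all genes in each. With no filter, so that all 362 members entered, 99 were called higher in Intestine (11.6% of all 32328 genes were), 45 in Spleen (2.93%) and 0 in each of BM (1.89%), Lung (0.303%) and Skin (0.0%).

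**Figure D2:**
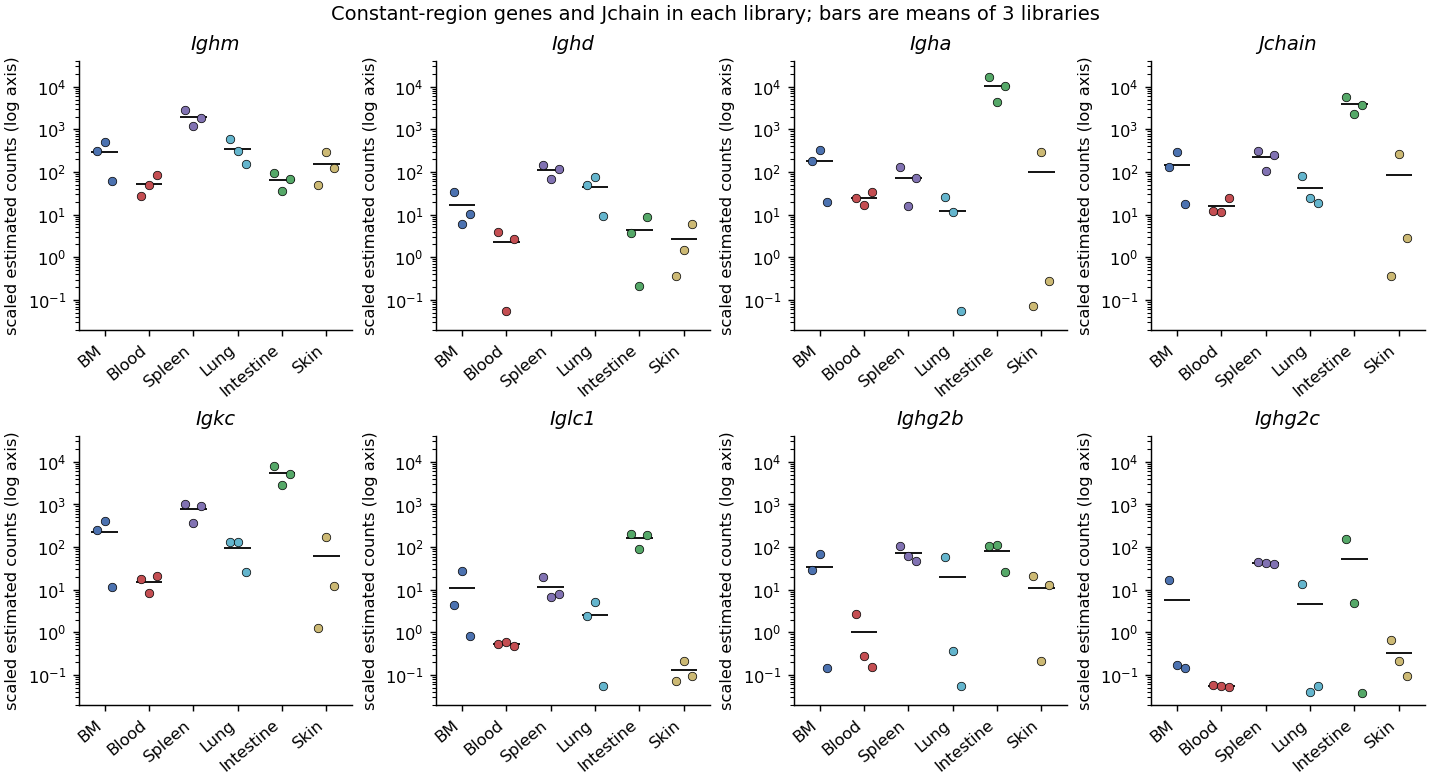
Scaled estimated counts (log axis) of 7 constant-region genes and Jchain in each of the 18 libraries, by tissue, with a bar at the mean of 3 libraries. Igha, Jchain and Igkc are highest in the 3 Intestine libraries, while Ighm in Intestine (35.1 to 95.8) overlaps Blood (27.0 to 83.7) and Ighm and Ighd are highest in Spleen, apart from 1 Lung library for Ighd.

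Among the heavy-chain constant genes, IgM and IgD were highest in Spleen. Ighm, whose product is the receptor of naive B cells and the first antibody secreted, was at 2853, 1187 and 1896 scaled counts in Spleen and at 27.0, 48.5 and 83.7 in Blood. Lung libraries gave 591, 305 and 151, BM libraries 317, 499 and 63.0, Skin libraries 48.3, 296 and 121, and Intestine libraries 95.8, 35.1 and 69.4. All 3 Spleen libraries lay above every other library, and Intestine overlapped Blood. The log2 difference from Blood was 5.25 ± 0.47 (SE) in Spleen (adjusted p = 1.12e-07), 2.63 ± 0.60 in Lung (adjusted p = 0.00353) and 2.15 ± 0.56 in BM (adjusted p = 0.0357). In Intestine it was 0.36 ± 0.59 (adjusted p = 0.666) and in Skin 1.31 ± 1.07 (adjusted p = 0.595). The Spleen call kept an adjusted p of 0.000641 in the fit with no weights. The BM call of Ighm was lost when BM 1, BM 2, Blood 1 or Blood 2 was left out. That call was also lost with no filter, with no weights, without the Skin libraries, under quantile normalization and with no trend. The Lung call of Ighm was lost without Lung 2 and with no filter.

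Ighd, which naive B cells make from the same transcript as Ighm by alternative splicing, followed it in most tissues. Its scaled counts were 143, 66.9 and 119 in Spleen, 49.5, 78.0 and 9.15 in Lung and 33.4, 5.89 and 10.1 in BM. Intestine gave 3.67, 0.207 and 9.02, Blood 4.01, 0.0544 (no count) and 2.66, and Skin 0.368, 1.51 and 6.05. Spleen and Blood did not overlap, and Intestine and Blood did. The log2 difference from Blood was 5.30 ± 0.66 in Spleen (adjusted p = 1.24e-05) and 3.68 ± 0.85 in Lung (adjusted p = 0.00399). The Lung call of Ighd was also lost without Lung 2 and with no filter. In Intestine it was 0.52 ± 0.83 (adjusted p = 0.658).

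IgA dominated Intestine. Igha was at 16707, 4293 and 10150 scaled counts there and at 24.8, 16.6 and 34.2 in Blood, a log2 difference of 8.48 ± 1.002 (adjusted p = 4.42e-07). Spleen libraries had 130, 15.9 and 73.8, with a difference of 1.12 ± 0.80 from Blood (adjusted p = 0.469), and BM libraries 183, 336 and 19.9 (2.11 ± 0.96, adjusted p = 0.278). The lowest Intestine library stood above every library of the other tissues by more than an order of magnitude. Lung libraries had 25.7, 11.3 and no count. Skin libraries had no count, 302 and 0.279, so that in Skin the gene was read from Skin 2 alone.

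Jchain rose in Intestine and in Spleen. It was at 5677, 2291 and 3660 scaled counts in Intestine, 304, 108 and 256 in Spleen and 12.5, 11.6 and 24.3 in Blood. The log2 difference from Blood was 7.80 ± 0.76 in Intestine (adjusted p = 3.24e-08) and 3.65 ± 0.61 in Spleen (adjusted p = 0.000347), the latter lost in the fit with no weights. BM libraries had 131, 292 and 17.8 (2.47 ± 0.73, adjusted p = 0.0665) and Lung libraries 80.9, 24.2 and 18.5 (1.08 ± 0.77, adjusted p = 0.388). In Skin, libraries 1 and 3 had 0.374 and 2.88 and Skin 2 had 258. Per kilobase, Jchain relative to IgM plus IgA was 0.36, 0.56 and 0.38 in Intestine and 0.077, 0.068 and 0.098 in Spleen, values that did not overlap. Relative to Igkc it was 0.15, 0.17 and 0.15 in Intestine and 0.064, 0.061 and 0.058 in Spleen.

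The 4 IgG genes were called in Spleen and were uneven between libraries elsewhere. Ighg3 was at 48.1, 22.8 and 49.1 scaled counts in Spleen, where Blood had no count, 0.381 and no count (log2 difference 5.07 ± 0.71, adjusted p = 5.68e-05). Ighg2c was at 44.7, 43.4 and 40.3 in Spleen and had no count in any Blood library, so it was at least 110-fold higher (5.37 ± 0.92, adjusted p = 0.000517). Ighg2b was at 106, 62.2 and 48.4 in Spleen and at 2.69, 0.272 and 0.156 in Blood (5.30 ± 0.92, adjusted p = 0.00056). For these 3 genes the Spleen libraries did not overlap Blood. Ighg1 was lower, at 16.8, 33.3 and 10.1 (3.97 ± 1.05, adjusted p = 0.0179). The Ighg1, Ighg2b and Ighg2c calls were lost in the fit with no weights. That of Ighg1 was also lost with no filter and without Blood 2, Spleen 1 or Spleen 2.

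In Intestine the IgG signal rested largely on 1 library. Ighg1 was at 438, 0.29 and 20.4 scaled counts, Ighg2c at 155, 5.01 and no count, and Ighg2b at 109, 114 and 25.8. The differences from Blood were called for Ighg2b (5.31 ± 1.15, adjusted p = 0.00069), Ighg1 (4.25 ± 1.31, adjusted p = 0.0118) and Ighg2c (3.23 ± 1.16, adjusted p = 0.0284). The Ighg1 and Ighg2c calls were lost without Intestine 1, and that of Ighg2c also with no weights, with a weight per library and with no filter. Ighg3 had 2.18 in Intestine 1 and no count in the other Intestine libraries (0.39 ± 0.89, adjusted p = 0.768). In Lung, IgG came from library 1, with 58.1 for Ighg2b, 31.2 for Ighg1, 27.3 for Ighg3 and 13.7 for Ighg2c. The other Lung libraries had at most 0.357 for any of the 4. Ighe, the IgE constant gene, had 101 estimated counts in Spleen 1, 45 in Intestine 1 and none in any other library, and it did not pass the filter.

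Light chains were higher in both tissues. Igkc, the single kappa constant gene, was at 7946, 2887 and 5292 scaled counts in Intestine, 1000, 376 and 934 in Spleen and 17.8, 8.22 and 20.7 in Blood. The log2 difference from Blood was 8.32 ± 0.83 in Intestine (adjusted p = 4.79e-08) and 5.51 ± 0.67 in Spleen (adjusted p = 7.92e-06). BM libraries had 253, 403 and 11.4, a difference of 2.80 ± 0.80 (adjusted p = 0.0587), and Lung libraries 131, 134 and 26.6, a difference of 2.34 ± 0.85 (adjusted p = 0.0636). Of the lambda constant genes, Iglc1 was at 200, 90.2 and 195 in Intestine, 19.9, 6.58 and 7.90 in Spleen and 0.538, 0.599 and 0.469 in Blood. Iglc2 was at 171, 50.3 and 42.9 in Intestine and 58.1, 28.4 and 45.0 in Spleen, where the tissues overlapped. Iglc3 had no count in Blood and was at 19.9, 9.37 and 13.2 in Spleen, at least 36.5-fold higher. Iglc4 had no count in any library. All 3 detected lambda constant genes were called higher than Blood in Intestine and in Spleen. The Spleen calls of Iglc1 and Iglc3 were lost with no weights and that of Iglc1 without Spleen 1, and the Intestine call of Iglc3 was lost with no weights, with no filter, under quantile normalization and without Intestine 1 or 3. Per kilobase, the kappa to lambda ratio was 19.4, 19.3 and 19.4 in Intestine and 10.3, 8.68 and 14.7 in Spleen. The Intestine libraries were nearly identical in this ratio although their summed signal differed, and they did not overlap Spleen. Mice are known for a strong excess of kappa over lambda light chains.

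Intestine and Spleen were then compared directly. IgA, Jchain, kappa and many variable segments were higher in Intestine, and IgM, IgD and IgG3 were higher in Spleen. Of the 140 members 55 were called higher in Intestine, where 16.3% of all tested genes were, and 6 were called lower, where 14.2% of all genes were. The median log2 difference was 1.46 over the members and -0.03 over all tested genes. Igha differed by 7.36 ± 1.004 (adjusted p = 4.22e-06), Jchain by 4.15 ± 0.76 (adjusted p = 0.00016) and Iglc1 by 3.77 (adjusted p = 0.000946). Igkc differed by 2.81 ± 0.84 (adjusted p = 0.0124), a call lost without Spleen 2, without Intestine 3, with no filter and in the fit with no weights. In the other direction Ighm differed by -4.89 ± 0.59 (adjusted p = 7.83e-07), Ighd by -4.78 ± 0.83 (adjusted p = 9e-05) and Ighg3 by -4.69 ± 0.89 (adjusted p = 0.000247). The other 3 members lower in Intestine were the variable segments Igkv3-4, Igkv3-11 and Ighv1-4. Leaving out Intestine 3 reduced the count in either direction from 61 to 37.

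**Figure D3:**
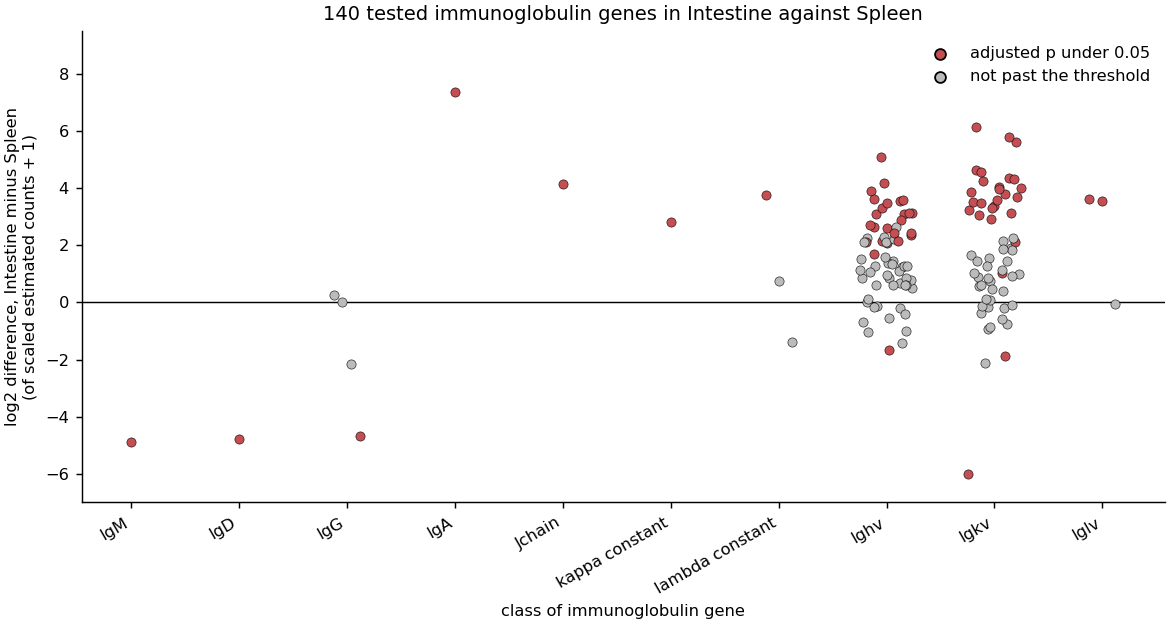
Log2 difference between Intestine and Spleen of each of the 140 tested immunoglobulin genes, grouped by class, with genes past an adjusted p of 0.05 in red. IgM and IgD lie near -4.9 and -4.8, IgA lies at 7.36, and most called variable segments lie above 0.

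Variable segments carried much of the signal. In Intestine against Blood 46 of 65 tested Ighv segments, 47 of 60 Igkv segments and all 3 Iglv segments were called higher, against 23.7% of all tested genes. In Spleen against Blood 21 Ighv, 25 Igkv and 2 Iglv segments were, against 5.94%. In Intestine against Spleen 24 Ighv, 25 Igkv and 2 Iglv segments were higher in Intestine, against 16.3%. Variable counts were also set against constant counts. Per 100 heavy-chain constant counts there were 24.0, 23.1 and 29.4 Ighv counts in Intestine, 19.3, 16.5 and 19.2 in Spleen and 16.8, 5.80 and 7.94 in Blood. Per 100 Igkc counts there were 86.6, 108 and 98.3 Igkv counts in Intestine and 96.5, 95.8 and 68.9 in Spleen. The kappa values of the tissues overlapped, and the heavy-chain values of Intestine lay above those of Spleen. Skin 1 and Skin 2 had 1.47 and 0.433 Ighv counts per 100 heavy-chain constant counts, below every other library.

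Several segments separated Intestine from Spleen in every library. Ighv1-58, shown above, was at 57.8, 22.1 and 59.2 scaled counts in Intestine and at 0.66, 0.182 and no count in Spleen, a log2 difference of 5.09 ± 0.52 (adjusted p = 8.92e-08). Igkv11-125 was at 97.9, 77.7 and 16.01 in Intestine and had no count in Spleen, so it was at least 224-fold higher (5.61 ± 0.58, adjusted p = 1.04e-07). Both had at most 1 count in any Blood library. Igkv2-109 was at 74.2, 248 and 190 in Intestine and at no count, no count and 8.66 in Spleen (6.13 ± 0.83, adjusted p = 3.83e-06). Igkv6-23 was at 146, 415 and 432 in Intestine and at 3.10, 2.36 and 9.98 in Spleen (5.80, adjusted p = 2.36e-05). These segments did not overlap between the tissues. Ighv1-58 and Igkv11-125 reached a scaled count of 1 only in the 3 Intestine libraries, so they entered the fit through the group where they are high and had to differ, and their p-values are no support for a difference.

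Igkv3-4 showed the opposite order. Its scaled counts were 124, 76.0 and 39.5 in Spleen, 22.2, 1.88 and 1.63 in Lung, and 0.379, no count and no count in Intestine. It had no count in Blood, so Spleen was at least 205-fold higher (log2 difference 6.11 ± 0.67, adjusted p = 1.91e-06), and Intestine differed from Spleen by -6.00 ± 0.84 (adjusted p = 5.68e-06). Among the members shown by sequence it was the only one higher in Spleen. Igkv3-11 differed by -1.87 (adjusted p = 0.00447) and Ighv1-4 by -1.68 (adjusted p = 0.0192), both from low levels. The call of Ighv1-4 was lost without Spleen 1, Spleen 3, Intestine 2 or Intestine 3, and with only the 6 libraries compared. Igkv3-11 reached a scaled count of 1 only in the Spleen libraries. It entered the fit through the group where it is high and had to differ, so its p-value is no support for a difference. Igkv3-11 shares 74.2% of its 61-base windows with other annotated genes, so its value depends on how reads were divided. As a family, the 13 Igkv3 segments held 16.9% to 27.2% of the Igkv counts in Spleen and 0.14% to 9.13% in Intestine. The 9 Igkv6 segments held 15.01% to 23.4% in Spleen and 23.2% to 34.1% in Intestine, ranges that overlap slightly.

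The most abundant segments were shared by both tissues. Igkv6-15 was at 1017, 411 and 835 scaled counts in Intestine, 130, 58.4 and 12.9 in Spleen, 109, 10.6 and 1.44 in BM and 1.85, 0.599 and 3.40 in Blood. In BM 1 it held 46.9% of the Igkv counts. Igkv1-110 was at 570, 130 and 901 in Intestine and 114, 7.30 and 9.48 in Spleen, and its near-copy Igkv1-117 at 318, 240 and 225 in Intestine and 71.5, 16.5 and 23.0 in Spleen. Igkv6-17 was at 243, 157 and 307 in Intestine and 33.6, 6.64 and 31.0 in Spleen. It differed from Blood by 7.26 ± 0.75 in Intestine (adjusted p = 6.78e-08) and 3.78 ± 0.60 in Spleen (adjusted p = 0.000219). Igkv9-120 was at 12.4, 21.2 and 30.7 in Spleen (4.07 ± 0.66 from Blood, adjusted p = 0.000272, lost with no weights) and at 190, 11.7 and 54.2 in Intestine, where it overlapped Spleen.

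Among heavy-chain segments, Ighv10-1 had 257, 124 and 387 scaled counts in Intestine and 122, 6.30 and 20.0 in Spleen. Ighv1-26 had 231, 156 and 303 in Intestine and 51.4, 2.96 and 54.9 in Spleen, and Ighv1-76 had 458, 53.2 and 103 in Intestine and 28.2, 5.16 and 6.67 in Spleen. For all 3 the Intestine libraries lay above the Spleen libraries. Ighv14-2 entered the most abundant 4 through 1 library, with 330, 0.21 and 37.1 in Intestine. The 93 members of the Ighv1 family held 45.6% to 52.3% of the Ighv counts in Spleen and 44.8% to 52.7% in Intestine, so the family shares overlapped although single segments differed. The lambda segment Iglv1 was at 421, 185 and 377 in Intestine and 35.2, 11.7 and 34.1 in Spleen, and Iglv2 at 167, 79.3 and 8.07 in Intestine. Iglv3 was at 3.59, 1.35 and 24.5 in Spleen and 23.8, no count and 8.64 in Intestine.

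**Figure D4:**
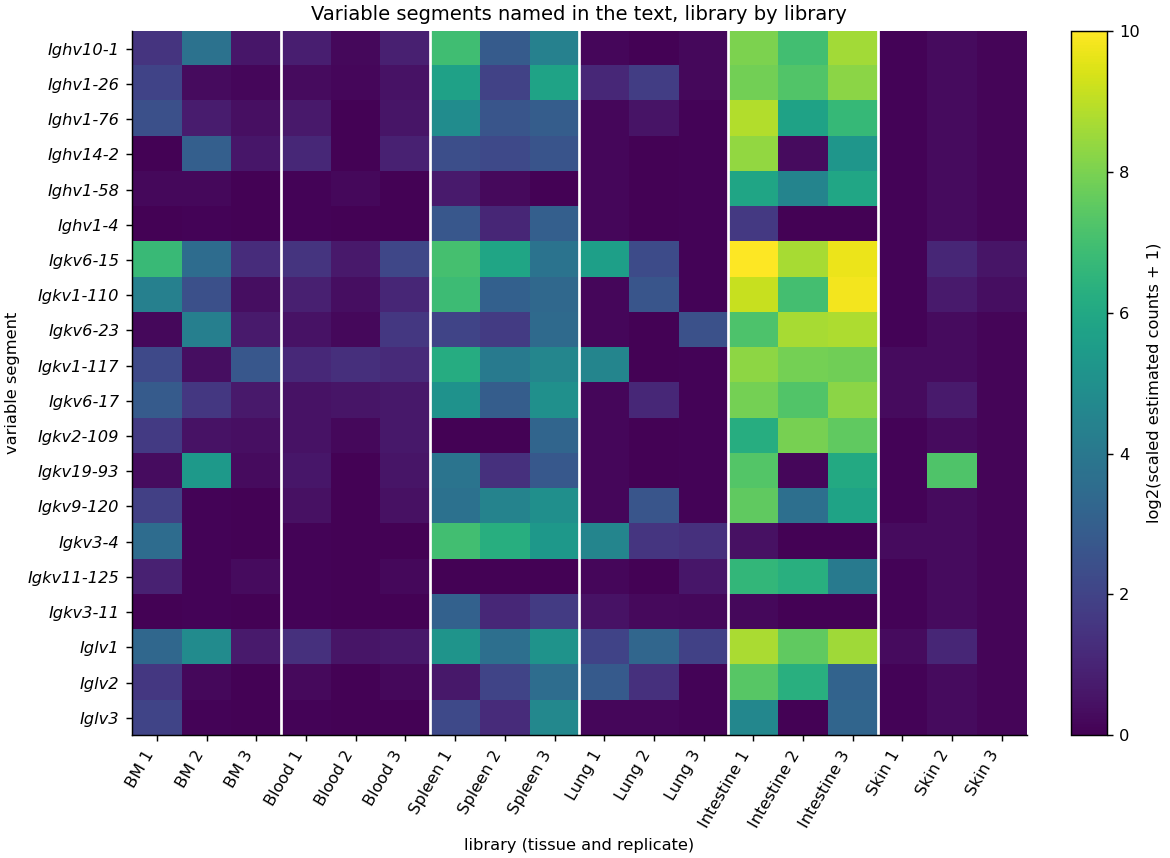
Log2(scaled estimated counts + 1) of the variable segments named by rule, with Igkv19-93 added, in rows, in each of the 18 libraries, in columns with white lines between tissues. Igkv3-4 is bright in Spleen and dark in Intestine, Igkv11-125 and Ighv1-58 the reverse, and Igkv19-93 is the one bright kappa segment in Skin 2.

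How far the same segments recurred was counted next. In Spleen 74 variable segments had a count in all 3 libraries, 42.8% of the 173 seen in any, and in Intestine 68 did, 31.9% of 213. In BM the count was 28 of 148, in Blood 20 of 99, in Lung 8 of 87 and in Skin 1 of 32. Recurrence depends on depth and on the number of immunoglobulin counts, which differ between tissues. Spleen and Intestine shared 42 recurrent segments, 56.8% of those in Spleen and 61.8% of those in Intestine. At a matched 30 Ighv counts per library, the expected number of distinct Ighv segments was 17.4, 19.3 and 17.8 in Spleen and 19.0, 14.6 and 18.3 in Intestine. For 30 Igkv counts it was 16.1, 15.6 and 18.2 in Spleen and 17.8, 15.2 and 15.6 in Intestine. The variety of segments in these tissues therefore overlapped once the counts were matched. In Skin the values for Igkv were 7.81, 1.67 and 4.18, below all Spleen and Intestine libraries. Lung 3 was as low, at 7.40, and Skin 1 had only 36 Igkv counts.

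Position along the kappa locus was compared as well. The functional segments of each locus were split by distance from Igkc or Ighm into 3 sets of like size. The Igkv set nearest to Igkc, 22.8 to 783 kb away, held 48.1% to 55.8% of the Igkv counts in Spleen and 37.7% to 46.6% in Intestine, ranges that did not overlap. The farthest set, 1892 to 3171 kb away, held 25.1% to 31.5% in Spleen and 32.3% to 42.3% in Intestine. For Ighv the set nearest to Ighm held 21.2% to 32.9% in Spleen and 8.94% to 31.3% in Intestine, and the tissues overlapped. Of the 348 variable segments 130 are annotated as pseudogenes, which cannot encode a full chain. They gave 0.609% of the variable counts in Spleen, 0.93% in Intestine and 5.71% in Lung, and 38 of them had a count in any library against 203 of 218 functional segments.

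Skin stood apart by its make-up rather than its amount. In each Skin library 1 segment held most of the kappa variable counts, and the segment differed between libraries. Igkv9-129 had 27 of the counts of Skin 1, a share of 75.0%, Igkv19-93 had 344 in Skin 2, 97.7%, and Igkv14-126 had 84 in Skin 3, 88.4%. Ighv2-5 had 87 counts in Skin 3, 87.9% of its Ighv counts. These 4 segments were chosen after their values were seen. Igkv19-93 has no 61-base window in common with another member, and it had 159, 0.124 and 65.8 scaled counts in Intestine, 41.3 in BM 2 and no count in Skin 1 or Skin 3. Skin 2 was also the only Skin library with more than 1 count of Igha (698 counts, 302 scaled counts), with Jchain at 258 and Igkc at 173. Its B-cell gene Cd79b was at 316, while Mzb1 and Derl3 had no count. Without Skin 2 the mean of the summed signal in Skin was 165 rather than 531.

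Genes of the cells that make antibodies were read beside these values. The lists below were chosen with earlier results of these data known, so their counts are descriptions. Of 18 B-cell lineage genes 17 were tested, and 14 were called higher and none lower in Spleen against Blood, where 5.94% of all tested genes were higher. In Lung 9 were higher and none lower (10.7% of all genes higher), and in BM 4 were higher and 1 lower (1.62% and 1.26%). In Intestine 5 were higher and 2 lower, near the shares of all genes (23.7% and 17.6%). In Intestine against Spleen none were higher and 14 were lower, where 14.2% of all genes were lower. Pax5, the factor that fixes B-cell identity, was at 336, 226 and 288 scaled counts in Spleen and at most 2.14 in Blood (7.53 ± 0.55, adjusted p = 7.53e-09). It was at 17.9, 2.61 and 3.80 in Intestine. The summed list ran from 1452 to 2271 in Spleen, 210 to 294 in Intestine, 176 to 229 in Blood, 220 to 360 in BM, 224 to 646 in Lung and 115 to 506 in Skin. Blk, Cd72 and Vpreb3 were among the genes at 0 in all Blood libraries, and none of the 18 was at 0 throughout Spleen, Lung or Intestine.

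Plasma cell and antibody secretion genes were called in Intestine and in Spleen. Of the list's 15 tested genes 9 were called higher in Intestine against Blood (23.7% of all tested genes were), 5 in Spleen (5.94%), 3 in Lung (10.7%) and 0 in BM (1.62%), with 1 lower in Lung and 1 lower in Skin. In Intestine against Spleen 4 were higher and none lower, where 16.3% and 14.2% of all genes were. Sdc1, the surface proteoglycan CD138 of plasma cells, was at 191, 62.7 and 103 in Intestine, 10.5, 1.20 and 6.196 in Spleen and at most 0.677 in Blood (6.15 ± 0.79 from Blood, adjusted p = 1.43e-06). Sdc1 is also made by epithelial cells, and it was at 148 in Skin 1, which had no Igha count. Derl3, of the endoplasmic reticulum's protein disposal, was at 29.1, 12.9 and 9.56 in Intestine (3.91 from Blood, adjusted p = 2e-05), and Txndc5, a folding enzyme, at 139, 76.2 and 72.6 (5.66, adjusted p = 6.14e-06). Outside Intestine, Derl3 reached a scaled count of 1 only in Spleen 1 (4.75) and Spleen 2 (2.07). It thus passed the filter through Intestine, and its p-value is no support for a difference. Tnfrsf17, the plasma cell survival receptor BCMA, had no count in any library. The summed list ran from 572 to 1511 in Intestine, 533 to 765 in Spleen and 483 to 585 in Blood. The part of either cell type in the immunoglobulin values was not tested.

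Other lists that could accompany immunoglobulin RNA were read in the same way. All 9 epithelial genes were called higher in Intestine than in Blood, where 23.7% of all tested genes were. Among them was Pigr, the receptor that carries IgA dimers across the epithelium. In Lung 4 were called higher (10.7% of all genes), in Skin 1 (1.65%) and in Spleen none (5.94%). The summed list was 353 to 795 in Intestine and 46.6 to 1110 in Skin, where Skin 1 and Skin 2 were as high as Intestine, and at most 99.9 in the other tissues. The Skin sums rested on few genes, with Fcgbp at 634 in Skin 1 and 367 in Skin 2 and Cdh1 at 354 in Skin 1. Krt19, Cldn7 and Muc2 had no count in any Skin library. Pigr was at 333, 39.6 and 195 in Intestine and at most 3.91 in Blood (5.70, adjusted p = 6.97e-06), and Muc2, the goblet-cell mucin, was at 123, 141 and 102 (5.91, adjusted p = 7.09e-08). Outside Intestine, Muc2 reached a scaled count of 1 only in Blood 3 (3.39). It thus passed the filter through Intestine, and its p-value is no support for a difference. All 18 neutrophil identity genes were called lower in Intestine than in Blood, where 17.6% of all tested genes were lower, 12 were in Spleen, where 2.53% were, 13 in Lung, where 5.16% were, and 12 in Skin, where 3.76% were. S100a9, an abundant granulocyte alarmin, differed by -5.33 in Intestine (adjusted p = 1.16e-10). The Skin libraries were unlike each other, with neutrophil sums of 1294, 19908 and 10669 and epithelial sums of 1110, 763 and 46.6. The part of these lists in the immunoglobulin values was not tested. T-cell markers were called higher for 6 of 14 tested genes in Spleen (5.94% of all genes) and for 3 in Intestine, near the 23.7% of all genes. Plasmacytoid dendritic cell markers were called higher for 2 of 9 tested genes in Spleen and 4 in Intestine, against the same shares. Of the 15 B-cell receptor signalling genes, several of which neutrophils also express, 5 were called higher in Spleen (5.94% of all genes), and 4 higher and 11 lower in Intestine (23.7% and 17.6%).

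**Figure D5:**
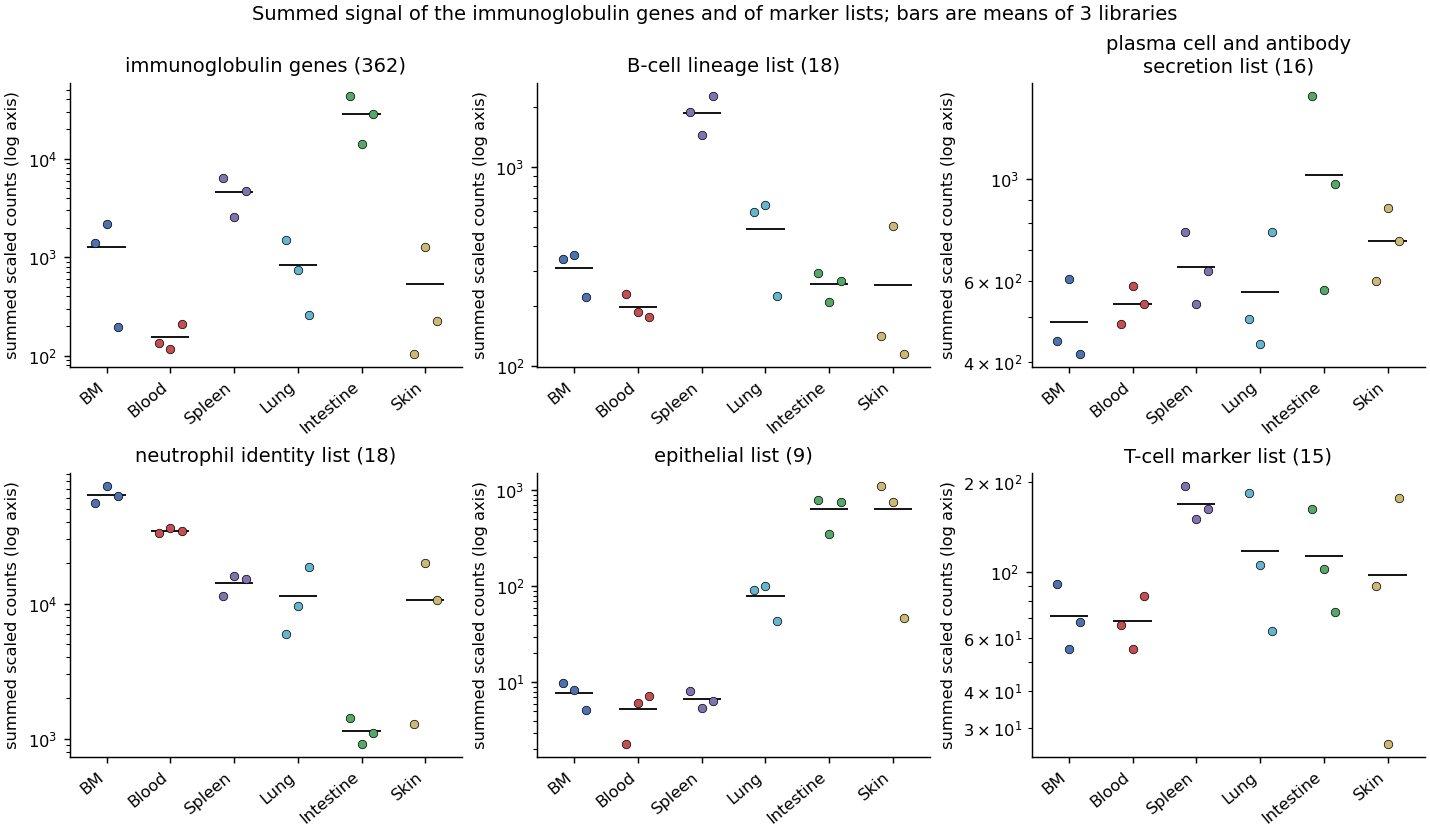
Summed scaled counts (log axis) of the 362 immunoglobulin genes and of 5 marker lists in each library, by tissue, with a bar at the mean of 3 libraries. The immunoglobulin sum is highest in Intestine, the epithelial list is high in Intestine and in 2 Skin libraries, the B-cell lineage list is highest in Spleen (1452 to 2271) and the neutrophil list is lowest in Intestine (918 to 1432).

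Genes of antibody gene rearrangement and switching were read as well. Rag1, which cuts the segments during V(D)J joining in B-cell precursors, was at 7.77, 30.8 and 11.5 scaled counts in BM and had no count in Blood (3.85 ± 0.47, adjusted p = 5.29e-05). Outside BM it reached a scaled count of 1 only in Intestine 3. It thus passed the filter through BM, and its p-value is no support for a difference. Of 13 tested precursor genes only Rag1 was called higher in BM, where 1.62% of all tested genes were. Igll1 and Vpreb2 of the surrogate light chain had no count there, while Vpreb1, also of that chain, was at 3.49 in BM 2 alone of the BM libraries. In Spleen 3 of the 13 were higher (5.94% of all genes) and in Lung 2 (10.7%). In Intestine 4 were higher and 1 lower (23.7% and 17.6%). Of the 10 class-switching genes 3 were called higher in Spleen than in Blood, where 5.94% of all genes were. In Intestine 2 were higher and 2 lower, near the shares of all genes (23.7% and 17.6%).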

How the data were processed

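Single-end 61-base RNA-seq reads (Ovation Single Cell RNA-Seq System, per the labels' protocols) were processed by the authors, and the submitters' processing notes name mm10, CASAVA, RSEM 1.3.1 and limma without order or role. The gene annotation is not given in the sources used here. The deposited values are a signal per gene: in each library they equal the estimated count plus a small offset, per effective library size, with no gene length, although the table is named TPM. Recovered counts were not whole for many genes, so no count model was used. From the values, log2(value + 1) was modelled in limma 3.58.1 (R 4.3.3) over all 18 libraries with 6 group means, a trended prior and a weight per tissue, with 12 residual degrees of freedom. Genes entered when 3 or more libraries reached a value of 1, and Benjamini-Hochberg adjustment ran over all tested genes. Scripts were tested on simulated data. Sums carry no test. Exon lengths, positions and sequences came from GENCODE vM21 on mm10. Of 32328 genes, 508 have an identifier but no symbol and stayed in the fit.

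Named genes were all constant genes and Jchain, the 4 variable segments per locus with the highest mean, up to 3 segments per comparison and direction with the smallest adjusted p, and up to 4 such genes from each other list. Pseudocounts, filters, weights, scalings, a replicate block and leaving out each library were tried. The members and lists were chosen with earlier results of these data known. Bounds on folds use 3 counts per library and cover counting error only. Values of 2 genes on the marker lists are not reported here.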

Additional observations from a re-analysis of the deposited data

How the results depend on the processing

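Of 268 alternative values of the main counts and sums, 237 stayed within 1.5 times or 1 SD and 31 moved. For BM against Blood the 1 call became 3 with a pseudocount of 5, 2 with a weight per library or with only the 6 libraries compared, and 0 with no filter, no weights, quantile normalization or no trend, and leaving out 1 library gave 0 to 8. For Spleen against Blood the 59 calls became 9 with no weights (Ighd, Ighg3, Ighm, Ighv1-26, Igkc, Igkv3-4, Igkv6-17, Igkv8-24 and Iglc2), and leaving out 1 library gave 37 (without Spleen 1) to 68. For Lung against Blood the 2 calls became 4 with a pseudocount of 0.5, 0 with no filter, 11 with a weight per library and 5 without mitochondrial and Gm10800-related counts, and leaving out 1 library gave 0 (without Lung 2) to 7 (without Lung 3). For Intestine against Blood the 105 calls became 56 with only the 6 libraries compared, and leaving out 1 library gave 74 to 113. For Intestine against Spleen leaving out 1 library moved the 61 calls to between 37 (without Intestine 3) and 71. Skin against Blood had 0 calls under every alternative run. Members detected at a value of at least 1 averaged 44.7 in BM, 10.7 in Blood, 110.0 in Spleen and 7 in Skin, and at 3 counts or more 62.7 in BM, 24.0 in Blood and 7 in Skin. The sign of 3 differences between Intestine and Blood, none past the threshold, changed. Leaving out 1 library gave -0.15 (without Intestine 1) to 0.66 for Ighg3, -0.048 (without Blood 1) to 0.75 for Ighm, and -0.18 (without Intestine 3) to 1.35 for Ighd, which was at -0.16 without Blood 2 and -0.0184 under quantile normalization. The cause of these changes was not tested. Scaling moved the median difference of all genes in Skin from -0.26 to -0.63 with scaling by the total count and in Intestine from 0.12 to 0.41 without mitochondrial and Gm10800-related counts. Over 45 same-numbered pairs of libraries the correlation of deviations ran from -0.06 to 0.11 with a median of -0.0033. No shared deviation was visible, which cannot tell whether same-numbered libraries come from the same animal. With the replicate block the calls were 1 in BM, 63 in Spleen, 3 in Lung, 106 in Intestine, 0 in Skin and 60 between Intestine and Spleen. In Skin at most 8 members reached 3 counts, which limits what could be compared there.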
